A study of Arabidopsis thaliana with 6 samples.

Results

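The nuclear genes described here encode the light-harvesting antenna proteins of both photosystems, nuclear subunits of photosystems I and II, plastocyanin, the small subunit of Rubisco, Rubisco activase and the early light-induced proteins ELIP1 and ELIP2 of Arabidopsis thaliana. They were taken by locus identifier from a list of 51 genes, of which 49 were among the 22426 loci of the table, and all 49 reached the minimum level for testing. LHCB2.2 (AT2G05070) and LHCB4.2 (AT3G08940) were not among those loci, so they have no values here and only their sequences were used. The data came from whole 2-week-old seedlings, in 3 libraries labelled wild type and 3 labelled NCBP mutant. The plants of both groups grew in a greenhouse at 22 °C, with a light period of 16 hours and a dark period of 8 hours, under LED light of 153 μmol per square metre and second. The labels give neither the mutant allele nor the ecotype, and they give no hour of harvest. The transcript of NCBP (AT5G18110), an eIF4E-like protein that binds the mRNA cap, stood at 97.4, 100.4 and 97.9 FPKM in wild type against 57.9, 59.2 and 55.8 FPKM in mutants, so it was lower in the mutant but present.

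Light is absorbed by chlorophyll proteins of the LHCA family at photosystem I and of the LHCB family at photosystem II. Photosystem II takes electrons from water, and plastocyanin carries them on to photosystem I. Rubisco fixes carbon dioxide with a large subunit made in the plastid and a small subunit, RBCS, made in the cytosol from nuclear genes. Transcripts of these nuclear genes are among the most abundant in green tissue and are controlled by light, the clock and signals from the plastid.

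Most of these transcripts did not differ between mutant and wild type beyond the spread between libraries. Of the 49 genes tested, 2 rose in the mutant (ELIP1 and LHCB4.3), 1 fell (RCA, Rubisco activase) and 46 did not pass, at an adjusted p under 0.05 by limma. Among all 18064 genes tested 6.27% rose and 8.44% fell, 14.7% in all, against 6.12% of these 49. The 2 groups of libraries did not overlap for 8 of the 49 genes (16.3%), against 35.5% of all genes tested. The mutant lay above for 5 of them and below for 3, against 16.4% and 19.1% of all genes. The median log2 fold change of the 49 genes was 0.05, with a range of -0.27 to 0.88. Missing the threshold does not show that a gene stayed the same, so the 95% intervals of the log2 fold change matter here. For 46 of the 49 genes the whole interval lay within a 1.5-fold change in either direction, and for 35 within a 1.25-fold change. FPKM are fragments scaled to gene length and to the library total, and these abundant genes weigh in that total. After each library was rescaled to the same FPKM sum, 6 of the genes were higher and 1 lower, as LHCB1.1, LHCB5, LHCB6 and PSBP1 joined the genes that rose. The same rescaling turned 1133 higher and 1524 lower calls over all genes into 1286 and 1100.

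**Figure D1:**
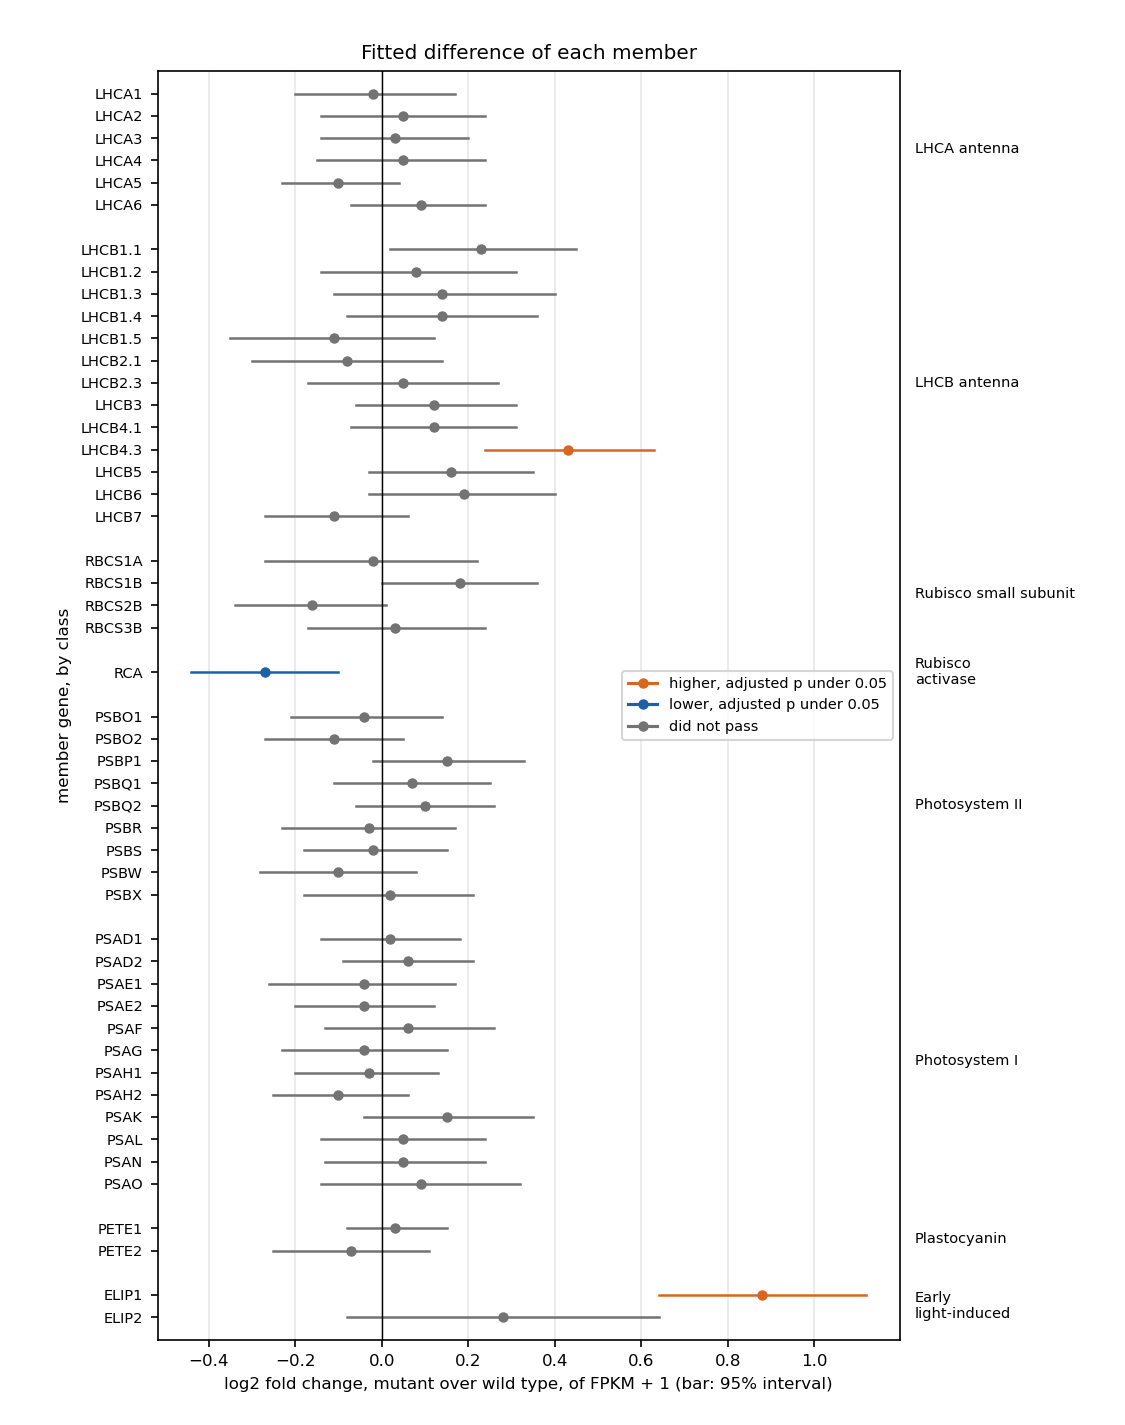
Fitted log2 fold change of FPKM + 1, mutant over wild type, for each of the 49 genes (points) with its 95% interval (bars), by class. ELIP1 (0.88) and LHCB4.3 (0.43) lie to the right of 0 and RCA (-0.27) to the left, while most other intervals include 0.

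Together the 49 genes made up a large part of all FPKM in each library. Their share of the FPKM sum was 28.8%, 26.7% and 26.2% in wild-type replicates 1, 2 and 3 and 28.4%, 28.7% and 28.0% in mutant replicates 1, 2 and 3. The mutant values all lay between the wild-type extremes, with means of 27.3 ± 1.38% and 28.4 ± 0.364% (SD, n = 3 each). The 20 loci with the highest mean FPKM of the whole table all belonged to this set, as did 37 of the top 50 and 42 of the top 100. The LHCB antenna alone took 10.6 ± 0.693% of the sum in wild type and 11.4 ± 0.33% in the mutant. Photosystem I subunits took 5.36 ± 0.272% and 5.58 ± 0.0608%, photosystem II subunits 4.19 ± 0.123% and 4.29 ± 0.092% and RBCS 3.04 ± 0.216% and 3.06 ± 0.113%. The LHCA antenna took 3.08%, 2.96% and 2.93% in wild type and 3.05%, 3.12% and 3.12% in the mutant. For each of these 5 classes the libraries of the 2 groups overlapped.

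**Figure D2:**
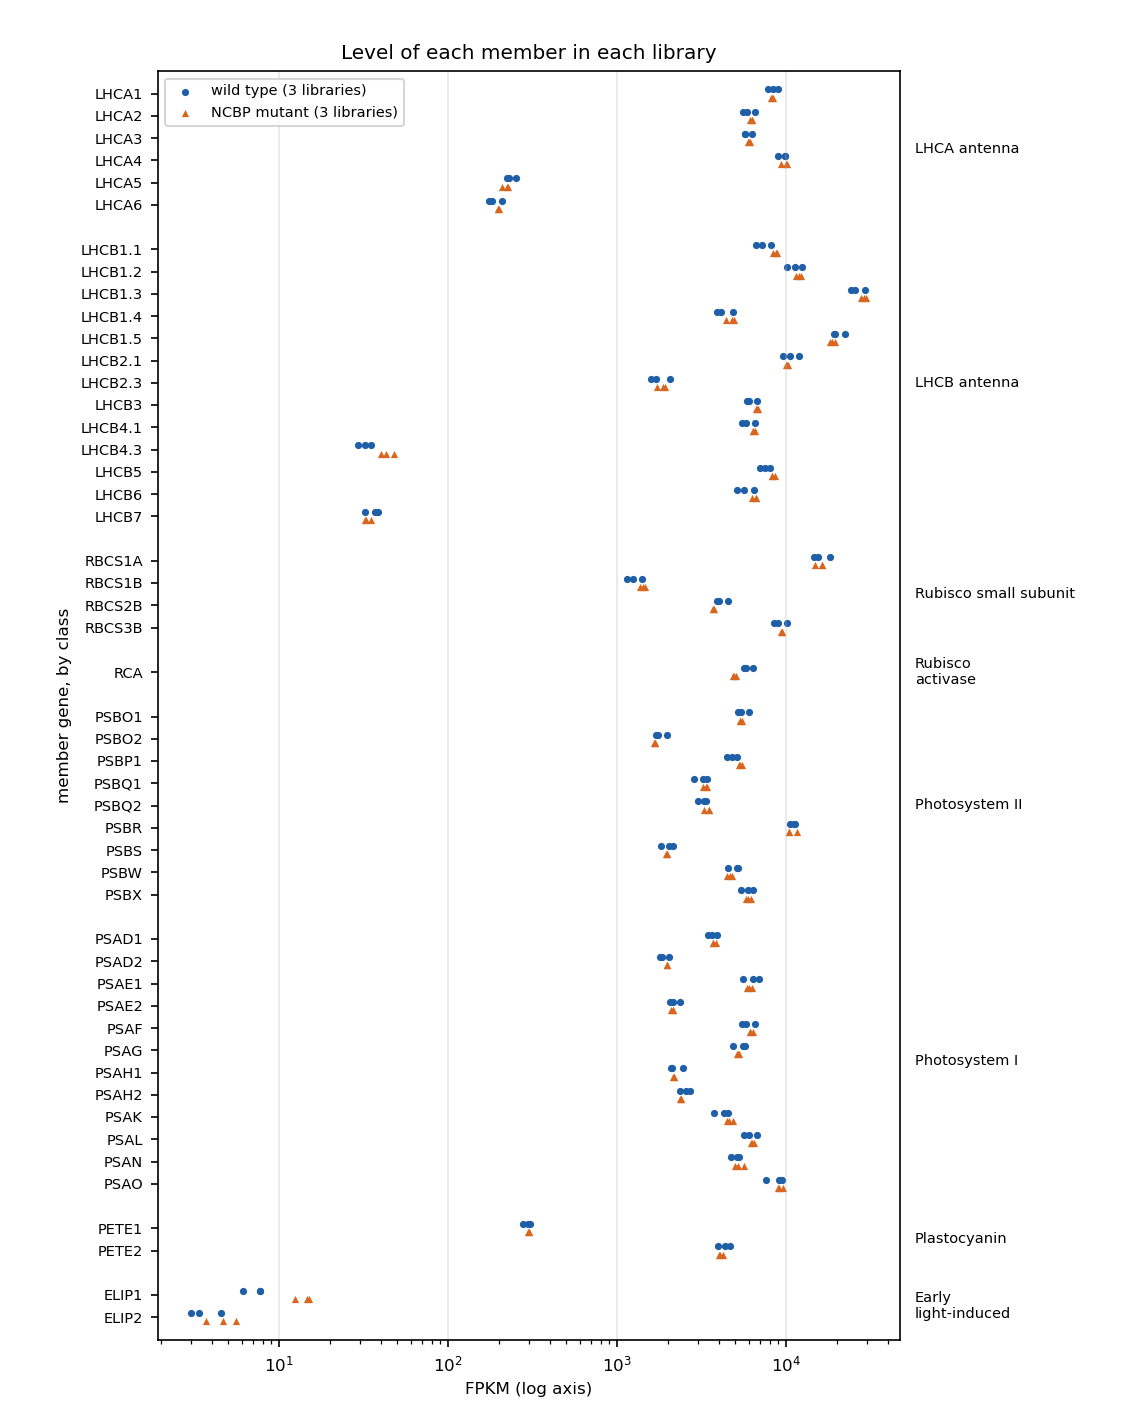
FPKM of each gene on a log axis in the 3 wild-type libraries (circles) and the 3 mutant libraries (triangles), by class. Levels run from about 4 FPKM for ELIP2 to about 27598 FPKM for LHCB1.3, and apart from ELIP1, LHCB4.3, RCA and 5 further genes the symbols of the groups overlap.

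The LHCB1 and LHCB2 proteins form the main trimeric antenna of photosystem II. The 2 loci of highest mean FPKM in the table were LHCB1 copies, while other LHCB1 and LHCB2 copies were lower. LHCB1.3 (AT1G29930, CAB1 in RefSeq), the locus with the highest mean level in the table, had 29262, 25462 and 24129 FPKM in wild type against 29033, 29812 and 27889.5 FPKM in mutants. The groups overlapped through wild-type replicate 1, and the log2 fold change was 0.14 (95% interval -0.11 to 0.40, adjusted p 0.435). LHCB1.5 (AT2G34420, LHB1B2) followed with 22410, 19451 and 19228 FPKM in wild type against 18680, 19409 and 18235 FPKM in mutants. LHCB1.1 (AT1G29920, CAB2) had 8185, 7219 and 6678 FPKM in wild type against 8671, 8858 and 8328 FPKM in mutants, so every mutant library lay above every wild-type library. Its log2 fold change of 0.23 (95% interval 0.02 to 0.45) did not pass the adjustment (adjusted p 0.133). LHCB1.2 and LHCB1.4 overlapped between groups, at log2 fold changes of 0.08 and 0.14. LHCB2.1 and LHCB2.3 overlapped as well, at -0.08 and 0.05. The coding sequence of LHCB2.1 was 96.6% identical to that of LHCB2.2, which has no values here. Of the stretches of 50 bases in LHCB2.1 transcripts, 21.9% also occur in LHCB2.2. Whether the value of LHCB2.1 holds reads of LHCB2.2 is not known. LHCB2.3 shares 40.6% of its exonic length with an annotated gene on the opposite strand.

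The LHCB1 copies are close relatives, and the sequences below are printed because the value of each copy depends on how far reads can tell it from the others. They are the first 90 coding bases of each gene, 5′ to 3′ on the coding strand, from the RefSeq annotation of TAIR10.1. Capitals mark bases that differ from LHCB1.1 in the alignment of the coding sequences.
LHCB1.1: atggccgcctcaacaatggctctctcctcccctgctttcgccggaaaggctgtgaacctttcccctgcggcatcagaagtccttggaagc
LHCB1.2: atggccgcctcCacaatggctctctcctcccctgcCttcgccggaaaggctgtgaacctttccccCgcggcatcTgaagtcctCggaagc
LHCB1.3: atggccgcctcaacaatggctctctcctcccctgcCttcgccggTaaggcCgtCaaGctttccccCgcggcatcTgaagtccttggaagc
LHCB1.4: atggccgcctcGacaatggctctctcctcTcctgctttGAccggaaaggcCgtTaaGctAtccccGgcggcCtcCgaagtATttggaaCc
LHCB1.5: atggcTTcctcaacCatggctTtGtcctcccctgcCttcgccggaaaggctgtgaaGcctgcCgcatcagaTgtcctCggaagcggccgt
LHCB1.2 and LHCB1.3 differ from LHCB1.1 at 5 and 7 of these bases, and LHCB1.4 and LHCB1.5 at 14 and 10, besides gaps. Over the whole coding sequence LHCB1.1 was 95.6% identical to LHCB1.2 and 96.1% to LHCB1.3, all on chromosome 1, and LHCB1.4 was 91.4% identical to LHCB1.5, both on chromosome 2. Between the chromosome 1 and chromosome 2 copies the identity was 86.7% to 90.4%. Of all stretches of 50 bases in the transcripts of LHCB1.1, 13.9% also occur in LHCB1.3, while LHCB1.1 and LHCB1.5 share 0%. No source used here gives the read length or the treatment of reads that fit several copies, so values of copies on the same chromosome are uncertain against each other.

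Seen as shares of the summed LHCB1 level within a library, the copies were more even between libraries of the same group than their FPKM. LHCB1.5 made up 29.1%, 28.8% and 30.0% of LHCB1 in wild type and 25.6%, 25.8% and 25.9% in the mutant. LHCB1.3 made up 38.0%, 37.7% and 37.7% in wild type and 39.7%, 39.6% and 39.7% in the mutant, and LHCB1.1 10.6%, 10.7% and 10.4% against 11.9%, 11.8% and 11.8%. For these 3 copies the groups did not overlap, in opposite directions for LHCB1.5 and the other two. Each had a p of 0.1 in a 2-sided exact permutation test, the smallest that 3 against 3 libraries allow, so none can pass 0.05 that way. The shares of LHCB1.2 (16.1 ± 0.485% and 16.3 ± 0.0652%) and LHCB1.4 (6.16 ± 0.0938% and 6.46 ± 0.174%) overlapped between groups. These shares of LHCB1 describe the copies against each other and do not tell which copy changed. An unequal change among the copies was not established by a test. In TAIR10.1 an antisense locus, AT2G08665, covers 100% of the exonic length of LHCB1.5, and as no source used here says whether strand was kept, its reads cannot be told from those of LHCB1.5.

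**Figure D3:**
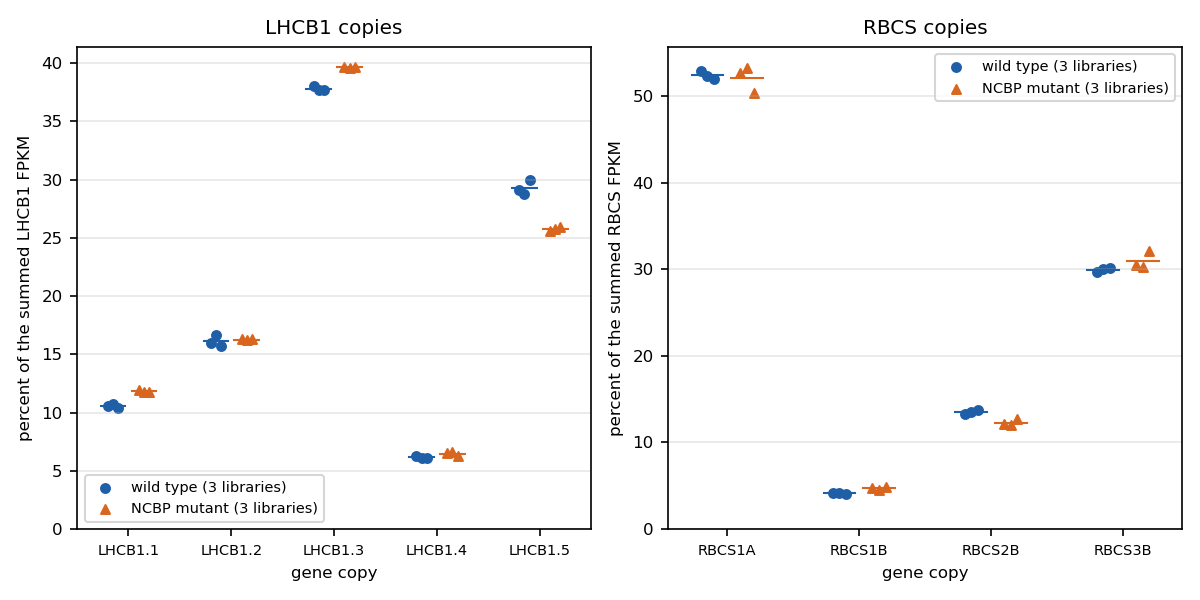
Share of each gene copy in the summed FPKM of LHCB1 (left) and of RBCS (right), in percent, in the 3 wild-type libraries (circles) and the 3 mutant libraries (triangles), with the group mean as a line. LHCB1.5 lies at 28.8% to 30.0% in wild type and 25.6% to 25.9% in the mutant, and RBCS1A overlaps between groups.

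The other LHCB proteins are LHCB3, which joins the trimers, and the monomeric antenna proteins LHCB4 (CP29), LHCB5 (CP26) and LHCB6 (CP24) that link the trimers to the photosystem II core. The single LHCB gene that passed the test was one of the least abundant. LHCB4.3 (AT2G40100), a CP29 form, had 35.0, 32.1 and 29.2 FPKM in wild type against 48.1, 42.9 and 39.9 FPKM in mutants. All mutant libraries lay above all wild-type libraries, and the log2 fold change was 0.43 (SE 0.09, 95% interval 0.24 to 0.63, limma adjusted p 0.0139), a 1.35-fold rise. The call held under every alternative tried, with adjusted p between 0.00755 and 0.0461. LHCB4.1 (AT5G01530), another CP29 gene, had 5940 ± 518 FPKM in wild type against 6442 ± 73.7 FPKM in mutants and overlapped. LHCB5 had 8031, 7500 and 7012 FPKM against 8212, 8616 and 8288 FPKM, without overlap but with an adjusted p of 0.234. LHCB3, LHCB6 and the weakly expressed LHCB7 overlapped, at log2 fold changes of 0.12, 0.19 and -0.11. In all, 1 of the 13 LHCB genes tested rose and 0 fell, and 2 had an unadjusted p under 0.05. Among all 18064 genes tested, 5574 had an unadjusted p under 0.05.

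LHCA1 to LHCA4 form the antenna belt of photosystem I, and LHCA5 and LHCA6 are minor members known to link photosystem I to the NADH dehydrogenase-like complex. None of the 6 LHCA genes passed the test, none had an unadjusted p under 0.05, and the libraries of the groups overlapped for each. LHCA4 (AT3G47470), the most abundant of them, had 9793, 9833 and 8915 FPKM in wild type against 9284, 10030 and 10171 FPKM in mutants, with a log2 fold change of 0.05 (95% interval -0.15 to 0.24). The log2 fold changes of the 6 genes ran from -0.10 for LHCA5 to 0.09 for LHCA6, and for each of the 6 the interval stayed within a 1.25-fold change. LHCA5 and LHCA6 were transcribed at 234 ± 14.7 and 188 ± 17.6 FPKM in wild type, far below LHCA1 at 8378 ± 544 FPKM.

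The 9 photosystem II genes encode the lumenal proteins around the water-splitting centre (PSBO, PSBP, PSBQ), the small subunits PSBR, PSBW and PSBX, and PSBS, the sensor of lumen acidity in photoprotection. None passed the test, and none had an unadjusted p under 0.05. PSBR (AT1G79040) was the most abundant, with 11364, 11116 and 10501 FPKM in wild type against 10430, 10371 and 11593 FPKM in mutants, which overlap. PSBP1 (AT1G06680) stood above wild type in all 3 mutant libraries, at 5158, 4796 and 4490 FPKM against 5251, 5333 and 5462 FPKM, with a log2 fold change of 0.15 and an adjusted p of 0.214. PSBO2 (AT3G50820) stood below wild type in all 3, at 1968, 1753 and 1688 FPKM against 1649, 1674 and 1672 FPKM, with a log2 fold change of -0.11 and an adjusted p of 0.319. Its copy PSBO1 (AT5G66570) overlapped, and the share of PSBO1 in the PSBO sum was 75.4 ± 0.124% in wild type and 76.4 ± 0.225% in the mutant. PSBS (NPQ4 in RefSeq, AT1G44575) had 2001 ± 164 and 1971 ± 13.8 FPKM, a log2 fold change of -0.02 with an interval of -0.18 to 0.15.

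The 12 photosystem I genes encode the stromal subunits PSAD and PSAE, where ferredoxin docks, PSAF and PSAN on the plastocyanin side, and the membrane subunits PSAG, PSAH, PSAK, PSAL and PSAO. The groups overlapped for all 12, none passed the test, and none had an unadjusted p under 0.05. PSAO (AT1G08380), the most abundant, had 9476, 9100 and 7614 FPKM in wild type against 8995, 9609 and 9135 FPKM in mutants. The log2 fold changes ran from -0.10 for PSAH2 to 0.15 for PSAK, and for 11 of the 12 genes the interval stayed within a 1.25-fold change. PSAH2 shares 24.8%, PSAH1 53.3%, PSAE1 33.0% and PSAG 61.4% of its exonic length with an annotated gene on the opposite strand, and without strand those reads cannot be assigned. Both plastocyanin genes, PETE1 and PETE2, overlapped between groups. PETE2 (DRT112 in RefSeq, AT1G20340), the main form by level, had 4664, 4359 and 3973 FPKM in wild type against 4054, 4032 and 4239 FPKM in mutants. PETE1 (AT1G76100) had 306, 297 and 278 FPKM in wild type against 301, 299 and 301 FPKM in mutants. As a share of both, PETE1 was 6.16%, 6.37% and 6.55% in wild type and 6.90%, 6.90% and 6.64% in the mutant, without overlap (exact permutation p 0.1).

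The 4 RBCS genes supply the small subunit of Rubisco. None passed the test. RBCS1A (AT1G67090), on chromosome 1, was the most abundant, with 18084, 15552 and 14714 FPKM in wild type against 16259, 16398 and 14749 FPKM in mutants. Its log2 fold change was -0.02 (95% interval -0.27 to 0.22). RBCS3B (AT5G38410) had 10155, 8917 and 8533 FPKM against 9401, 9333 and 9403 FPKM, so the mutant values fell within the wild-type range. RBCS2B (AT5G38420) had 4558, 4018 and 3910 FPKM against 3724, 3707 and 3706 FPKM, without overlap, with a log2 fold change of -0.16 and an adjusted p of 0.195. RBCS1B (AT5G38430), the least abundant, had 1404, 1239 and 1148 FPKM against 1466, 1373 and 1429 FPKM, overlapping through wild-type replicate 1, with a log2 fold change of 0.18 and an adjusted p of 0.172. Within the RBCS sum RBCS1A held 52.4 ± 0.45% in wild type and 52.1 ± 1.52% in the mutant, and RBCS3B 29.9 ± 0.233% and 31.0 ± 1.00%. RBCS2B held 13.6 ± 0.245% in wild type and 12.3 ± 0.347% in the mutant, while RBCS1B held 4.11%, 4.17% and 4.05% and then 4.75%, 4.46% and 4.88%. The groups did not overlap for RBCS1B, RBCS2B and RBCS3B, each with an exact permutation p of 0.1. Such shares were computed for 9 families of copies, and for PSBQ, PSAD, PSAE and PSAH every share overlapped between groups. No rate of such shares over all genes was computed. In FPKM, 35.5% of all genes tested did not overlap between groups.

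The B copies lie next to each other on chromosome 5 and are nearly identical, which is why their first 90 coding bases are shown, from the same annotation, with capitals for bases that differ from RBCS1A.
RBCS1A: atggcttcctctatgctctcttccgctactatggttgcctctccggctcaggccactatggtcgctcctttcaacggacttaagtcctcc
RBCS1B: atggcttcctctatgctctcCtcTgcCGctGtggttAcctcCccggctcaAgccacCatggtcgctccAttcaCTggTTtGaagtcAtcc
RBCS2B: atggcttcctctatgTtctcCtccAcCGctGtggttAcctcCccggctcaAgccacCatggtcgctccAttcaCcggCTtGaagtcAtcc
RBCS3B: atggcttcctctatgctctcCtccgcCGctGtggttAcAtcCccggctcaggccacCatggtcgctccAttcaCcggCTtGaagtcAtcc
The B copies differ from RBCS1A at 14 to 16 of these bases, mostly the same ones. RBCS1B and RBCS2B were 97.3% identical over their coding sequence, RBCS2B and RBCS3B 96.9%, and RBCS1A reached at most 90.1% with any B copy. Of the stretches of 50 bases in RBCS2B transcripts, 17.0% also occur in RBCS1B and 11.9% in RBCS3B, against 2.0% in RBCS1A. The split of reads among the 3 B copies is therefore uncertain.

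RCA (AT2G39730) encodes Rubisco activase, the ATP-driven protein that frees Rubisco from bound sugar phosphates. It was the 1 gene of the set that fell. It had 6377, 5673 and 5798 FPKM in wild type against 4913, 5056 and 4826 FPKM in mutants, so all mutant libraries lay below all wild-type libraries. The log2 fold change was -0.27 (SE 0.08, 95% interval -0.44 to -0.10), that is to 0.83 of the wild-type level, with a limma adjusted p of 0.047. As a share of the FPKM sum RCA went from 0.613%, 0.556% and 0.597% to 0.502%, 0.507% and 0.483%. Its fitted difference stayed below 0 under all 20 alternatives, between -0.33 and -0.22, but the call was close to the threshold. Adjusted p rose above 0.05 under 8 of the 20. It did so without wild-type replicate 2 (0.0686) and without mutant replicate 1 (0.148), 2 (0.142) or 3 (0.138). It also did so with no filter on low values (0.166) and with the replicate number as a block (0.142). With median-ratio scaling it was 0.0583, and with scaling to the genes outside the set it was 0.0504. Over the alternatives it ran from 0.00076 to 0.166.

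ELIP1 and ELIP2 are relatives of the antenna proteins that accumulate briefly under light stress and during greening, when they are thought to bind free pigment. They were the least abundant genes of the set. ELIP1 (AT3G22840) had 7.751, 7.675 and 6.121 FPKM in wild type against 14.70, 12.48 and 15.03 FPKM in mutants. The groups were well apart, and the log2 fold change of 0.88 (SE 0.11, 95% interval 0.64 to 1.12, limma adjusted p 0.00196), a 1.84-fold rise, was the largest of the 49. It passed under every alternative tried, with adjusted p from 0.000694 to 0.0115, although with a pseudocount of 5 in place of 1 it was smaller, at 0.65. ELIP2 (AT4G14690) had 4.54, 3.36 and 3.02 FPKM in wild type against 4.63, 3.70 and 5.55 FPKM in mutants, which overlap, with a log2 fold change of 0.28 (95% interval -0.08 to 0.64, adjusted p 0.271). The coding sequences of ELIP1 and ELIP2 were 73.4% identical and shared 0% of their stretches of 50 bases. ELIP1 made up 63.1%, 69.5% and 66.9% of their sum in wild type and 76.0%, 77.1% and 73.0% in the mutant, without overlap (exact permutation p 0.1).

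The wild-type libraries differed among themselves in most of these genes at once. Wild-type replicate 1 gave the highest of the 3 wild-type values for 45 of the 49 genes, and wild-type replicate 3 the lowest for 46. The median deviation from a gene's mean over the 6 libraries, on the log2 scale, was 0.11 in wild-type replicate 1, -0.02 in replicate 2 and -0.13 in replicate 3, and 0.04 and 0.02 in mutant replicates 2 and 3. For 22 of the 49 genes all 3 mutant values lay between the lowest and the highest wild-type value. The median coefficient of variation was 8.67% in wild type and 2.77% in the mutant, and the wild-type SD was the larger for 46 of the 49 genes (93.9%), against 55.6% of all genes tested and 35 of the 50 other genes with a mean of at least 1000 FPKM. FPKM sums ran in the same order, at 1040255 and 970383 in wild-type replicates 1 and 3, but the shares of the sum given above also differed between these libraries.

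**Figure D4:**
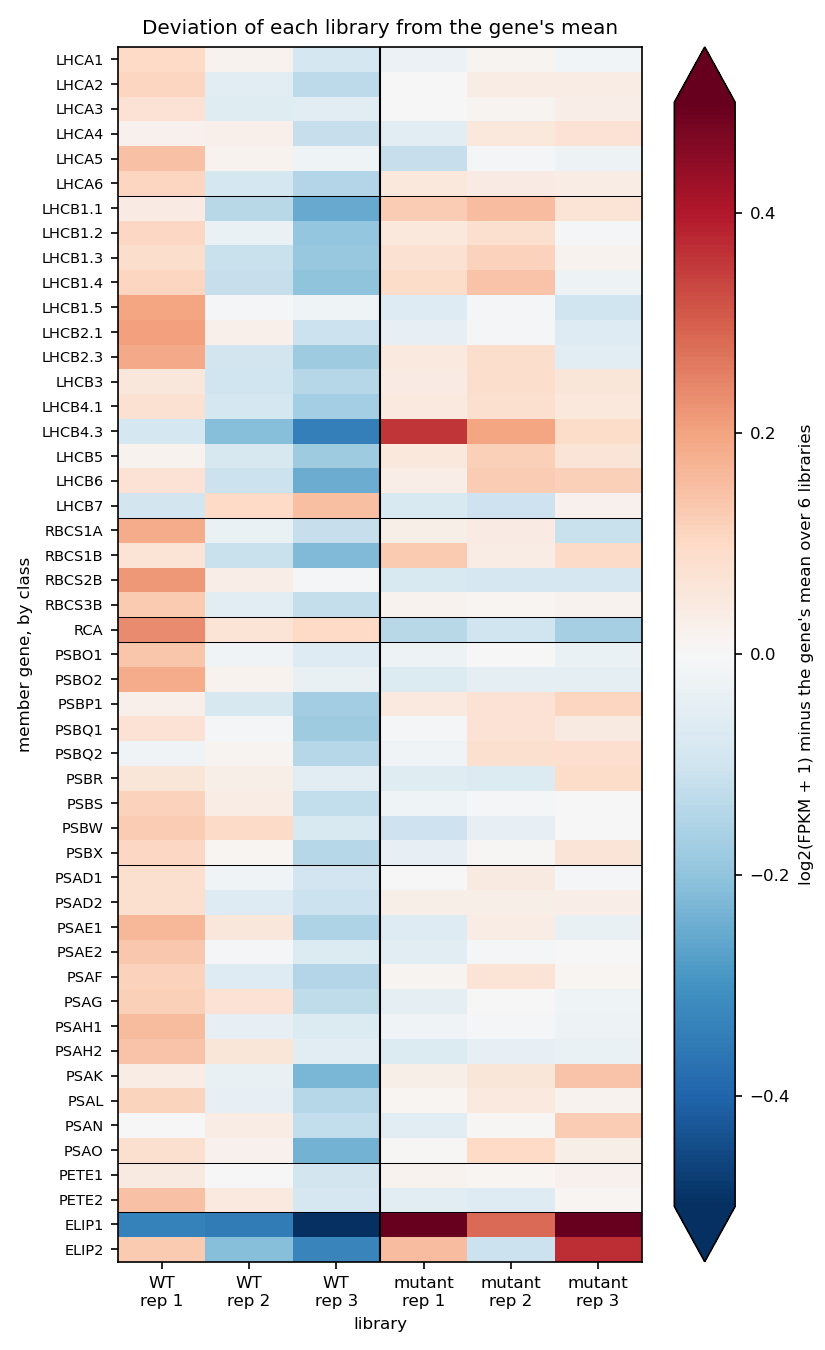
Log2(FPKM + 1) of each gene in each library minus the gene's mean over the 6 libraries, by class (red above, blue below the mean). Wild-type replicate 1 is above the mean and wild-type replicate 3 below it for most genes. The groups do not overlap for 8 of the 49 genes, ELIP1, LHCB4.3 and RCA among them.

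The libraries are of whole seedlings, so fewer cells of a type and less RNA per cell cannot be told apart. Of 12 markers of root tissue, 3 fell and 1 rose in the mutant, against 8.44% and 6.27% of all genes tested. PYK10, a root beta-glucosidase, fell from 1361 ± 129 to 1037 ± 91.8 FPKM, and the aquaporins TIP2-3 and PIP2-4 fell by 0.76 and 0.54 on the log2 scale, while the nitrate transporter gene NRT2.1 rose from 0.932 ± 0.41 to 2.42 ± 0.746 FPKM. The call of PYK10 was lost without wild-type replicate 2 (0.0628) or 3 (0.0568) or mutant replicate 1 (0.0759) or 2 (0.0532), and with quantile normalization (0.0716). That of NRT2.1 was lost without wild-type replicate 1 (0.0678) or 2 (0.0783) or mutant replicate 1 (0.084) or 2 (0.111), with no filter (0.0507) and with quantile normalization (0.0514). The summed root markers, mostly PYK10, were 1432, 1694 and 1581 FPKM in wild type against 1089, 1260 and 1269 FPKM in mutants, with the lowest wild-type sum in replicate 1. Flower markers summed to 3.36 to 5.35 FPKM in wild type and 3.85 to 4.80 FPKM in the mutant, with AP1, AP3 and AG under 1 FPKM in each library, and the 4 seed markers in the table were each under 1 FPKM in each library. The part of organ make-up in the values of the photosynthesis genes was not tested.

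Other genes of the same pathways showed a few changes of similar size. Of 12 tested nuclear genes of electron transport and the plastid ATP synthase, 1 rose and 2 fell, beside 6.27% and 8.44% of all genes tested. LFNR2 (AT1G20020), a ferredoxin-NADP reductase, rose from 616 ± 6.09 to 838 ± 33.4 FPKM, with a log2 fold change of 0.44 (SE 0.05) and an adjusted p of 0.00185. FD1 (AT1G10960), a minor leaf ferredoxin, fell from 909 ± 88.3 to 706 ± 14.6 FPKM (adjusted p 0.0151), and PGR5 (AT2G05620), needed for cyclic electron flow, from 301 ± 12.6 to 248 ± 11.1 FPKM (adjusted p 0.0135). The call of FD1 was lost without mutant replicate 2 (0.0614) and that of PGR5 without mutant replicate 1 (0.0549) or 2 (0.0558). Of 15 Calvin-Benson cycle genes 0 passed by limma, and 3 had an unadjusted p under 0.05, beside 5574 of all 18064 genes tested. The log2 fold changes of these 15 genes ran from -0.20 to 0.12. Their median was -0.02, against -0.00 over all genes tested.

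Of 10 genes for folding and assembly of Rubisco, 2 rose, 1 fell and 7 did not pass, with 6.27% higher and 8.44% lower over all genes. RBCX1 (AT4G04330), an assembly chaperone of the Rubisco large subunit, had 47.9, 52.6 and 56.5 FPKM in wild type against 90.6, 88.4 and 106.7 FPKM in mutants, a log2 difference of 0.85 (SE 0.09) at an adjusted p of 0.000926. Its relative RBCX2 (AT5G19855) moved the other way, from 140.7, 140.0 and 131.8 FPKM to 106.7, 119.7 and 119.2 FPKM (adjusted p 0.0244). The call of RBCX2 was lost without wild-type replicate 1 (0.0676) or 2 (0.0628), without mutant replicate 1 (0.0742) or 2 (0.0516) and with no mean trend (0.0619). RBCX1 shares 19.4% of its exonic length with a gene on the opposite strand.

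Of 15 further photosystem and antenna-like genes, 3 fell and 0 rose, where 8.44% of all genes fell and 6.27% rose. They were SEP2 (AT2G21970), OHP2 (AT1G34000) and OHP1 (AT5G02120), all stress-related or assembly-related relatives of the antenna proteins. SEP2 fell from 107 ± 1.84 to 82.8 ± 2.43 FPKM, with a log2 fold change of -0.36 (SE 0.05) and an adjusted p of 0.00273. The other two fell too, OHP2 from a mean of 330.2 to 272 FPKM (adjusted p 0.00957) and OHP1 from 551 ± 18.6 to 476 ± 24.6 FPKM (adjusted p 0.0385). The call of OHP1 was lost under 8 of its alternatives, among them leaving out wild-type replicate 1 (0.085) or 2 (0.0844) or mutant replicate 1 (0.124) or 2 (0.151).

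Of 11 tested regulators of photosynthesis genes, 1 rose and 2 fell, and over all genes 14.7% were called in either direction. GLK1 (AT2G20570), a transcription factor that activates antenna genes, rose from 136 ± 3.58 to 161 ± 3.77 FPKM, with a log2 fold change of 0.24 (SE 0.05) and an adjusted p of 0.0123, a call lost with scaling to the geometric mean of the 49 genes (0.138), and GLK2 did not pass, at 0.12. SIG1 (AT1G64860), a sigma factor for plastid transcription, fell from 109 ± 2.90 to 83.0 ± 1.47 FPKM (adjusted p 0.00209). CGA1 (AT4G26150), a GATA factor that promotes greening, fell from 5.73 ± 0.555 to 3.95 ± 0.312 FPKM (adjusted p 0.0204), a call lost without wild-type replicate 1 (0.0601) or mutant replicate 2 (0.0721).

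The windows of 250 bases before the annotated gene start were searched on both strands for 5 short motifs. CACGTG (G-box) was found in 11 of the 51 genes (21.6%) and in 7.2% of the same windows of 22046 protein-coding genes in the table. GATAAG (I-box) was found in 13 of 51 (25.5%) against 12.3%, and CCAATC in 13 of 51 (25.5%) against 10.2%. Of the 13 genes with CCAATC, 7 were LHCB genes, LHCB2.2 and LHCB4.2 among them, and 3 were LHCA genes. By contrast, 0 of the 12 photosystem I genes and 0 of the 4 RBCS genes had it. AAAAATCT, bound by CCA1, was found in 5 of 51 (9.8%) against 6.7%, and AAAATATCT, the evening element, in 1 of 51 (2.0%) against 2.5%. A match is a description of the letters and not a site of binding. The windows of the most abundant gene, of the gene that fell and of the gene with the largest rise are shown, 5′ to 3′ on the coding strand up to the base before the gene start, with matches in capitals, from RefSeq's TAIR10.1.
LHCB1.3, chromosome 1, plus strand: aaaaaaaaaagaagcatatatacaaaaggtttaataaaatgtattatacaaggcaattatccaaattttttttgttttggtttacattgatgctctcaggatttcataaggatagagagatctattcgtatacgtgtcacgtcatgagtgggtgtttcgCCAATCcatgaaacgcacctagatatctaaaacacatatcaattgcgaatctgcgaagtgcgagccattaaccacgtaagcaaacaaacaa
RCA, chromosome 2, minus strand: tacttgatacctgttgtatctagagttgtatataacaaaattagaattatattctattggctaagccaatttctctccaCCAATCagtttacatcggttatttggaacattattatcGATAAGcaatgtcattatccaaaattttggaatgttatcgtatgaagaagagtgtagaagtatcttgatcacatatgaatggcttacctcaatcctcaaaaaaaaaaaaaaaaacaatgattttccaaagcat
ELIP1, chromosome 3, minus strand: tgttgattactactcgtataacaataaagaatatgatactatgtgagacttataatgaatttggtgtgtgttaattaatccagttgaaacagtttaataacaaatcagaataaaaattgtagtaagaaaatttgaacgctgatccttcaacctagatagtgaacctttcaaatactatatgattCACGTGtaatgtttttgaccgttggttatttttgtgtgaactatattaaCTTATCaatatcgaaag
The window of LHCB1.3 holds CCAATC from 91 bases before the gene start. That of RCA holds CCAATC from 171 bases and GATAAG from 133 bases before it. That of ELIP1 holds CACGTG from 66 bases before it and CTTATC, which is GATAAG on the other strand, from 17 bases before it.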

How the data were processed

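The authors deposited FPKM values in 1 table of 22426 loci for 6 libraries, and 0 further per-sample columns were left aside. Per the submitters' processing notes, HISAT2 was used. Genome build, annotation, FPKM program and library totals: not given in the sources used here. Absolute depth is thus unknown. Between 42 and 46 loci per library had values above 0 but under 0.001 FPKM, so the values are not whole reads over length and no count test was run. The most frequent ratio among genes under 0.5 FPKM placed the relative depth at 1.093 to 1.312 times that of wild-type replicate 1. Few genes had that ratio, 38 of 1390 in wild-type replicate 2 and at most 99 of 1360, in mutant replicate 1. The relative depth is therefore a rough estimate. A library listed 1127 to 1345 loci at 0, which can be a failed estimate.

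Fold changes refer to log2(FPKM + 1) and understate those of low genes. The 18064 genes with a mean of at least 1 FPKM were fitted with limma 3.58.1 in R 4.3.3 (mean trend, 2-sided, Benjamini-Hochberg over all genes, threshold 0.05), and every adjusted p is from that test. Exact permutation tests of 3 against 3 libraries cannot go under 0.1. The labels do not say that the libraries came from separate sowings, so p-values measure only how these libraries vary, perhaps technically. The fit was first tested on simulated data.

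The genes, the 8 lists and the rule for named genes were chosen with earlier results of these data known. Values in every library were given for genes past the threshold (at most 3 per class and direction) and the most abundant gene of each class. They were also given for RBCS, RCA, plastocyanin and ELIP genes. Of each list at most 4 called genes were named, with values per library, group means or log2 fold changes. LHCB1.1, LHCB1.5, LHCB5, PSBP1 and PSBO2 were added after their values were seen. All 51 loci matched RefSeq's TAIR10.1, from which names, sequences (read by locus, with Biopython 1.88) and overlaps were taken. Coordinates are left out because the build of the deposited values is unnamed. Alternatives were 2 pseudocounts, 2 filters, 5 scalings, 4 changes of the model, leaving out each of the 6 libraries, and a scaling to the geometric mean of the 49 genes, added after seeing the data. A gene of the Rubisco assembly list that counts among those that rose is not reported here by name. The figures were drawn with matplotlib 3.10.9.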

Additional observations from a re-analysis of the deposited data

How the results depend on the processing

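ELIP1 and LHCB4.3 rose under all 20 alternatives. The number of genes of the set that rose, 2, became 6 with the same FPKM sum, 6 with organelle genes left out as well, 9 with quantile normalization and 3 with scaling to the genes outside the set or to the geometric mean of the set. The number that fell, 1, became 2 with quantile normalization, 7 with the geometric mean of the set (added after seeing the data), and 0 with no filter, median-ratio scaling, scaling to the genes outside the set or the replicate block. Without 1 library at a time the counts were 2 to 5 genes higher and 0 to 1 lower. The 5 came without wild-type replicate 1, with LHCB1.1, LHCB6 and RBCS1B added. The 7 lower genes were LHCB1.5, LHCB2.1, PSAH2, PSBO2, PSBW, RBCS2B and RCA, and this scaling sets the set's own mean level equal in all libraries. Over all genes 2657 were called, 1675 with the geometric mean of the set, and 1321 to 1997 without 1 library, 1321 without mutant replicate 1, 1391 without mutant replicate 2 and 1680 without wild-type replicate 3. The split of higher calls, 42.6% of all calls, was 53.9% with the same FPKM sum, 54.1% with organelle genes left out as well, 61.6% with scaling to the genes outside the set and 29.8% with the geometric mean of the set. The set's share of the FPKM sum was 1.11 percentage points higher in the mutant, and 0.597 to 1.90 points with 1 library left out, smallest without wild-type replicate 3 and largest without wild-type replicate 1. For genes that did not pass, the sign of the log2 fold change turned near 0: LHCA4 to -0.0099 with the geometric mean of the set, RBCS1A to 0.0025 with the same FPKM sum, with and without organelle genes, to 0.02 with scaling to the genes outside the set, and between -0.09 (without wild-type replicate 3) and 0.06 (without wild-type replicate 1) with 1 library left out; RBCS3B to -0.03 with the geometric mean and between -0.02 (without wild-type replicate 3) and 0.10 (without wild-type replicate 1); PSBR to 0.02 with quantile normalization and with scaling to the genes outside the set, 2.0e-05 with organelle genes left out and between -0.08 (without mutant replicate 3) and 0.0011 (without mutant replicate 2); PSAO between -0.0067 (without wild-type replicate 3) and 0.15 (without wild-type replicate 1); PETE1 to -0.02 with the geometric mean and -0.0059 without wild-type replicate 3. The cause of these changes was not tested.

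With the replicate number as a block 1991 genes were called over all genes, 2 of the set were higher and 0 lower, and the calls of RCA (adjusted p 0.142), RBCX2 (0.0535), OHP1 (0.0941) and NRT2.1 (0.0792) were lost. The deviations of libraries with the same number had correlations of 0.0705, -0.0716 and -0.0596. For libraries with different numbers the correlations ran from -0.0821 to 0.134. With 3 libraries per group these values cannot show whether the numbers pair the libraries. The cause of the lost calls was not tested. Depth is unknown, and it limits ELIP1, ELIP2 and other genes of few FPKM most. Quantile normalization sets each value by its rank within the library. It gives LHCB1.3, RBCS1A and RBCS3B a difference of 0, which reflects equal ranks in the groups and not equal levels. The counts of called genes with quantile normalization carry the same limit for genes of top rank.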
